A study of Mus musculus with 8 samples.

Results

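Cytochrome P450 genes were read on 8 one-colour Agilent mouse arrays of pancreatic islet RNA. The genes were taken by symbol, as every gene whose name is Cyp followed by a digit, and 101 of the 22911 genes that could be named on the array met this rule, with 122 probes between them. For the 18 genes with several probes the brightest probe was used, and 4 of the 101 symbols are pseudogenes. The control group was 4 extractions of islets from Fbln5-floxed mice. The βFbln5KO group was 4 extractions from mice in which the same floxed allele was deleted in β-cells by crossing with Ins1-cre mice, whose Cre is driven by the mouse insulin 1 promoter. All mice were 11 weeks old, both groups carry the floxed allele, the labels name no Cre for the control group, and 150 islets went into each extraction, so that the other cells of an islet keep the gene in both groups. Nothing in the labels says whether islets of several mice were pooled in an extraction, and p-values measure the spread between these extractions.

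P450 enzymes are haem proteins that insert 1 atom of oxygen into their substrates. Most sit in the endoplasmic reticulum and take electrons from P450 reductase, and some sit in mitochondria and take them from ferredoxin. Members of families Cyp1 to Cyp3 mainly handle drugs, other foreign compounds and fatty acids, and in mice their main site is the liver. The Cyp4 enzymes oxidize the ends of fatty acids, and the remaining families build or break down cholesterol, bile acids, steroid hormones, vitamin D and retinoic acid. Islets are not a classical site of drug metabolism, but their cells do carry oxidases of sterols and of lipid mediators.

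Signals are given throughout as the log2 of the processed signal minus the log2 of the array's 75th percentile, so that a level of 0 is the level below which 75 percent of the probes of that array lie. Levels of different genes come from different probes and are not compared. A gene is called bright on an array where the scanner software marks its spot as well above background. The targeted gene, Fbln5, which encodes the secreted matrix protein fibulin-5, had a level of −1.72 ± 0.31 (SD, n = 4) in control islets and −2.22 ± 0.59 (SD, n = 4) in βFbln5KO islets, and the difference of −0.50 had an adjusted limma p of 0.342. Without βFbln5KO replicate 4 the difference was −0.78, with an adjusted limma p of 0.0227. That array is set apart by its own Fbln5 level, so this p-value follows in part from the choice and is not read. The array of βFbln5KO replicate 4 read −1.37, inside the control range, while the other 3 βFbln5KO arrays read −2.74 to −2.38 and lay below every control. It is therefore called the library labelled βFbln5KO replicate 4, and calls and bounds of genes bright on other arrays that rest on it are given with and without it. The islet hormone genes and all 8 β-cell markers were bright on all 8 arrays. The lowest level on an array lay at −7.35 to −7.13 for control, and higher, at −7.04 to −6.53, for βFbln5KO. Each genotype filled its own row of arrays on the slide, so the effects of row and genotype cannot be told apart.

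Fewer P450 genes were bright in islets than genes in general, and which ones were bright depended on the array. Of the 101 genes, 24 were bright on all 8 arrays, 48 on 1 to 7 arrays and 29 on none. The share bright on all 8 arrays was 23.8%, against 59.6% of all named genes, that bright on 1 to 7 arrays 47.5%, against 15.5%, and that bright on none 28.7%, against 24.9%. Exactly 1 array was bright for 26.7% of the P450 genes, against 7.63%. The 24 steady genes were 4 sterol oxidases, 10 of the 60 genes of families Cyp1 to Cyp3 other than Cyp2r1, 7 of the 21 Cyp4 genes, Cyp17a1, Cyp2r1 and Cyp20a1. The 29 genes bright on no array included Cyp11a1, which starts steroid synthesis, Cyp11b1 and Cyp11b2, which finish corticoids, and Cyp19a1, the aromatase that makes oestrogens. They also included Cyp24a1, Cyp26a1 and Cyp26c1, which break down vitamin D and retinoic acid, and Cyp1a1, the classical target of the dioxin receptor.

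The library labelled βFbln5KO replicate 4 held many more detected P450 genes than any other array. On the control arrays 36, 37, 38 and 35 of the 101 genes were bright, on βFbln5KO replicates 1 to 3 it was 34, 29 and 31, and on replicate 4 it was 65. Over all named genes, 66.2% were bright on replicate 4, which was above the 62.5% to 62.8% of the other 3 βFbln5KO arrays and within the 65.5% to 66.7% of the control arrays. The part of this difference in the P450 count was not tested. Of the P450 genes, 23 were bright on replicate 4 and on no other array (22.8% of the members, against 1.56% of all named genes). The same count was 0 on 5 of the other 7 arrays, 1 on control replicate 2 (against 0.637% of all named genes) and 3 on βFbln5KO replicate 1 (against 1.01%).

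**Figure D1:**
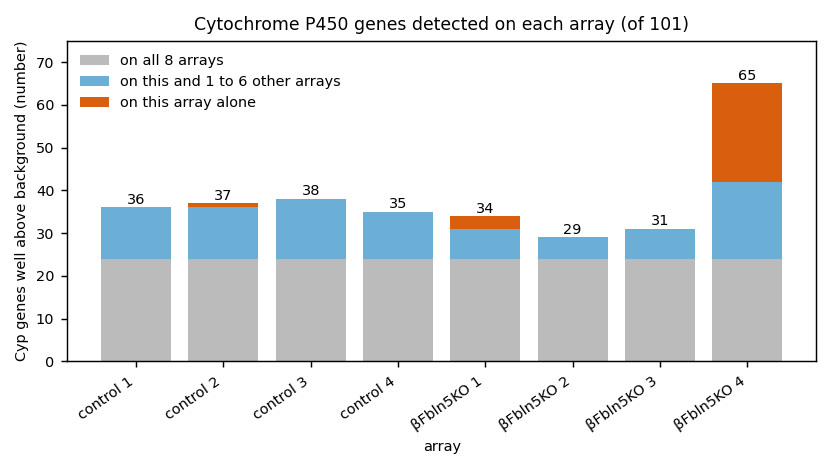
Number of cytochrome P450 genes marked well above background on each of the 8 arrays, out of 101, split into genes bright on all 8 arrays (grey), on this and 1 to 6 others (blue) and on this array alone (orange). βFbln5KO replicate 4 reaches 65, of which 23 are orange, and the other 7 arrays lie between 29 and 38.

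The 23 genes are named here after their values were seen. Families Cyp1 to Cyp3, which without Cyp2r1 hold 60 of the 101 members, gave 20 of them. They included Cyp2e1, which oxidizes ethanol, Cyp1a2, which oxidizes caffeine and aromatic amines, and Cyp2j5. They also included 6 of the 8 Cyp3a genes, 4 of the 10 Cyp2d genes, 4 of the 16 Cyp2c genes and 3 of the 4 Cyp2a genes. The other 3 of the 23 genes were Cyp7a1, the rate-limiting enzyme of bile acid synthesis, and the fatty acid hydroxylases Cyp4a10 and Cyp4f14. Many of these genes have near-identical neighbours in the mouse genome, and no probe sequences were available. A probe of one Cyp2c, Cyp2d, Cyp3a or Cyp4a gene may therefore also read its paralogs.

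Cyp2e1 had a level of −4.91, −5.59, −7.13 and −5.89 on the control arrays and −6.45, −6.03, −6.67 and 3.08 on the βFbln5KO arrays. The signal on replicate 4 was at least 154-fold above the highest detection floor of the other 7 arrays, where that floor is the lowest signal marked well above background. Between the groups, averaged over all 4 arrays of each, the bound was at least 1.82-fold, or 1.13-fold against the highest floor, and the adjusted limma p was 0.666. With replicate 1, 2 or 3 left out in turn the bound was 2.90-fold to 3.36-fold. Without replicate 4 the gene was bright on no array by this probe, and no bound remains. On all 7 other arrays, the other 3 of the βFbln5KO group included, this probe was not well above background. The second probe of Cyp2e1 was bright on replicate 4, at 1.11, and on control replicate 2, at −1.88, so by any probe 22 genes and not 23 were bright on replicate 4 alone.

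Cyp3a41a, of the family of main drug-oxidizing enzymes, read −7.09, −7.06, −5.33 and −6.93 in control and −6.31, −6.47, −6.61 and 1.70 in βFbln5KO, at least 59.2-fold on replicate 4. Cyp2d10, of the family that oxidizes many basic drugs, read −5.39, −5.41, −5.81 and −5.58 in control and −4.99, −6.40, −4.99 and 0.77 in βFbln5KO, at least 31.0-fold on replicate 4. Cyp2c50, of the family that oxidizes drugs and arachidonic acid, read −7.06, −7.02, −7.21 and −7.00 in control and −6.38, −6.45, −6.43 and 0.49 in βFbln5KO, at least 25.6-fold on replicate 4. In each of the 3 genes this probe was high on a single array and not well above background on the others. The second probe of Cyp2c50 read −6.71 on replicate 4 and was bright on no array. Of the 23 genes, 4 had several probes, and those of Cyp2j5 disagreed in the same way, with a second probe at −6.64 on replicate 4, while of the 3 probes of Cyp4a10 2 were bright there. The bounds of Cyp2c37 and Cyp2c68 were at least 19.4-fold and 14.1-fold. Over the 22 genes for which a bound above 1 could be given, it lay between 1.12-fold and 154-fold, and Cyp7a1, at −4.35, gave no bound. All of these bounds use the same floor, so their order is that of levels of different probes and is not read. Only 2 of the 23, Cyp7a1 and Cyp1a2, had an unadjusted limma p under 0.05 between the groups, and none passed adjustment. Without replicate 4 both were below background on all remaining arrays, where the floor lies higher in βFbln5KO, and their adjusted limma p was 0.00316 and 0.00248.

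Some genes bright on other arrays too were highest on the same array. Of the other 25 genes bright on 1 to 7 arrays, 9 had their highest level on replicate 4, 5 of them by more than 1 on the log2 scale, and 9 had it on βFbln5KO replicate 1, 6 of them by more than 1. Of the 24 genes bright on all arrays, 9 were highest on replicate 4, and Cyp2c38, Cyp2c67, Cyp2c70 and Cyp2d11 were so by more than 1. A second probe of Cyp2d26 read −0.09 on replicate 4 and −4.79 to −4.10 on the other 7 arrays, whereas its brightest probe read 2.08 there, within the control range of 1.39 to 2.13. The 2 probes of that gene do not show the same pattern.

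**Figure D2:**
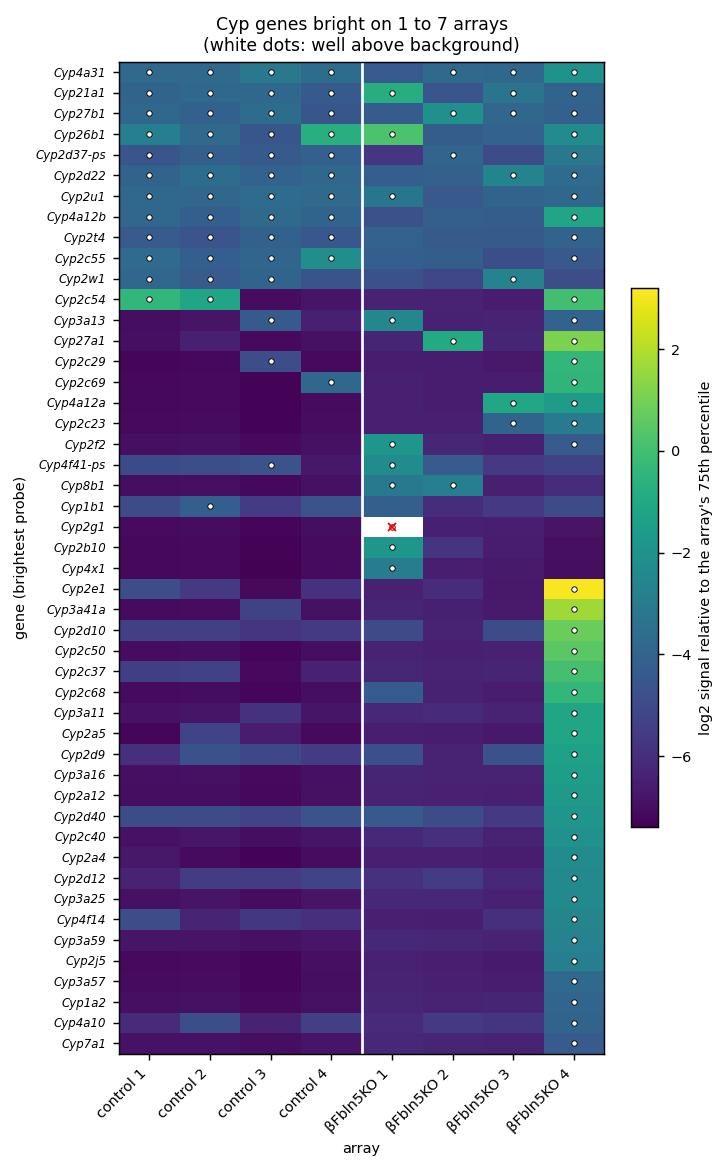
Level of the 48 P450 genes bright on 1 to 7 arrays (rows, brightest probe) on the 8 arrays (columns), as log2 signal relative to the array's 75th percentile. White dots mark spots well above background and the red cross a value left out as an outlier. The lower 23 rows are bright in the right-hand column, βFbln5KO replicate 4, and on no other array.

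Markers of hepatocytes were high on the same array. The 7 hepatocyte markers looked at were Alb, Apoa1, Apoa2, Apob, Ttr, Fgb and Serpina1a, and 5 of the 7 were highest on the library labelled βFbln5KO replicate 4. Alb, serum albumin, read 3.25 there and −6.49 to −3.57 on the other 7 arrays. Serpina1a, the plasma protease inhibitor α1-antitrypsin, read 4.90 there and −1.73 to −1.02 elsewhere, and Fgb, the fibrinogen β chain, read 1.30 there and −7.03 to −5.35 elsewhere. Apoa1 and Apoa2, proteins of high-density lipoprotein, read −0.12 and 4.44 there, against −7.10 to −6.27 and 1.56 to 2.05 elsewhere. Ttr, which α-cells also express, was lowest on that array at 5.53, and Apob, the protein of low-density lipoprotein, was below background on it at −6.36 and bright on control replicate 1 alone.

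The summed level of the 7 markers, in multiples of the 75th percentile signal, was 63.5 to 82.9 in control, 60.6 to 62.5 on βFbln5KO replicates 1 to 3 and 110.5 on replicate 4. Most of the sum on the other arrays was Ttr, and the remaining 6 markers summed to 3.44 to 4.62 in control, 3.50 to 4.32 on βFbln5KO replicates 1 to 3 and 64.4 on replicate 4. Other liver products looked at afterwards were also high on it: Mup20, a major urinary protein, read 3.97, Mup3 2.92, Fabp1, the liver fatty acid binding protein, 2.69 and Ahsg, the plasma protein fetuin-A, 2.88. The highest level of any of these 4 genes on another array was −3.49, for Mup20 on control replicate 1. The part of these transcripts in the P450 result was not tested. In bulk RNA, more cells of a type and more RNA per cell cannot be told apart.

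**Figure D3:**
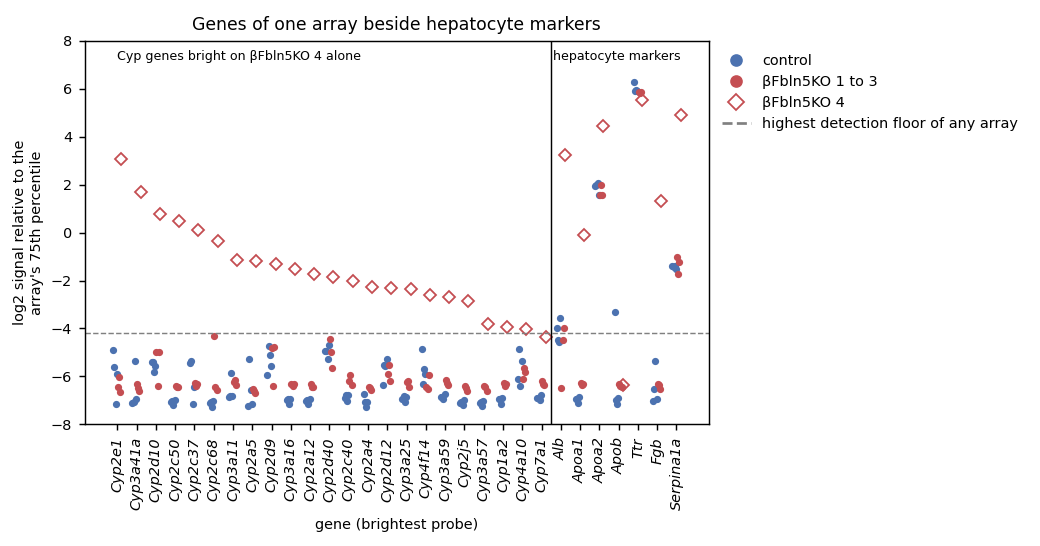
Level on each array, as log2 signal relative to the array's 75th percentile, of the 23 P450 genes bright on βFbln5KO replicate 4 alone (left) and of the 7 hepatocyte markers (right). Open diamonds are βFbln5KO replicate 4, filled points the other arrays, and the dashed line is the highest detection floor, −4.19. The diamonds of Cyp2e1 at 3.08 and Alb at 3.25 stand above the points of all other arrays, and those of Ttr and Apob do not.

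The promoters of several of these genes share a short run of letters. HNF4α is a nuclear receptor of liver, gut and pancreas, and CAAAGTCCA is a common form of the site it binds. These 9 letters were looked for on both strands of the RefSeq promoter windows, from 250 bases before to 50 after each start, and no other motif was searched. They occurred in 0.555% of the 27025 genes with a window in the table. Of the 101 genes, 74 had a window and 10 of these held the run (13.5%). It stood in 5 of 20 genes bright on replicate 4 alone (25.0%), in 2 of the 13 others bright on 1 to 7 arrays (15.4%), in 2 of 20 bright on all arrays and in 1 of 21 bright on none (4.76%). The neighbouring copies of a subfamily share sequence, so these genes are not independent, and a run of letters is not a bound site. Hnf4a itself was bright on all arrays, at 1.98 to 2.29 in control and 1.98 to 2.25 in βFbln5KO. The 5 windows of genes bright on replicate 4 alone are shown with 15 bases on each side and the run in capitals, in the direction of transcription, followed by Cyp2c69 and Cyp8b1, the others bright on 1 to 7 arrays, Cyp2c65, which was bright on no array, and Cyp2c67 and Cyp2c70, which were bright on all 8.
Cyp3a41a: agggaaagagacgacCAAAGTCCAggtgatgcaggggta
Cyp3a16: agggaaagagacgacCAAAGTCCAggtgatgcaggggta
Cyp3a11: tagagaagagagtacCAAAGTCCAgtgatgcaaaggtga
Cyp2c40: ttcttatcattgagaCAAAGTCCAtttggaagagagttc
Cyp2c68: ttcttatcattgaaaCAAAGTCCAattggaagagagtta
Cyp2c69: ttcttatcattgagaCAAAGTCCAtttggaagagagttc
Cyp8b1: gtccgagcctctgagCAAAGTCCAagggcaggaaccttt
Cyp2c65: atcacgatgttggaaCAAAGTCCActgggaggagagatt
Cyp2c67: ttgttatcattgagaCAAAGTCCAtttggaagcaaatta
Cyp2c70: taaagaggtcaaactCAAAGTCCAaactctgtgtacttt
In GRCm38.p6 the window of Cyp3a41a lies at chr5:145720208-145720246, that of Cyp3a16 at chr5:145469799-145469837 and that of Cyp3a11 at chr5:145879940-145879978, all on the minus strand. The windows of Cyp2c40, Cyp2c68, Cyp2c67 and Cyp2c70 lie at chr19:39812836-39812874, chr19:39741155-39741193, chr19:39649144-39649182 and chr19:40187327-40187365 on the minus strand, those of Cyp2c69 and Cyp8b1 at chr19:39886821-39886859 and chr9:121916349-121916387 on the same strand, and that of Cyp2c65 at chr19:39060875-39060913 on the plus strand. The runs begin 45 bases (Cyp2c40) to 125 bases (Cyp2c67) before the annotated start. The windows of Cyp3a41a and Cyp3a16 are identical over all 39 bases. So are those of Cyp2c40, bright on replicate 4 alone, and Cyp2c69, which was not bright there alone. Cyp2c69, Cyp2c67 and Cyp2c70 also had their highest level on replicate 4, each by more than 1 on the log2 scale.

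Between the genotypes, no P450 gene passed the test after adjustment over all probes, and before adjustment those that passed all lay higher in βFbln5KO. Limma with Benjamini-Hochberg adjustment called 0 of 101 members, beside 2 genes higher (0.00873%) and 1 lower (0.00436%) among all named genes. At an unadjusted p under 0.05, 31 members were higher (30.7%, against 16.8% of all named genes) and 0 were lower (against 2.68%). Of the 31, 20 belonged to the 29 members bright on no array, where 60.6% of all such genes were also called higher, and their median log2 difference of 0.50 stood beside 0.48 over all genes bright on no array. The floor of the arrays also lay higher in βFbln5KO, and no fold is given for genes dim in both groups. With normexp background correction the split was 2 higher and 1 lower, with quantile normalization it was 2 and 0, and with a common floor on dim signals 2 and 0, both bright on all arrays. Without the library labelled βFbln5KO replicate 4, 33 members were higher at an adjusted p under 0.05, beside 15.9% of all named genes. Of these 33, 20 were bright on no array, where 58.3% of all such genes were called, 13 on 1 to 7 arrays, where 7.83% were, and 0 on all 8, where 0.271% were. All 13 were bright on no control array and 11 had been bright on replicate 4 alone, so that their direction follows from the class and nothing is read from their share.

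**Figure D4:**
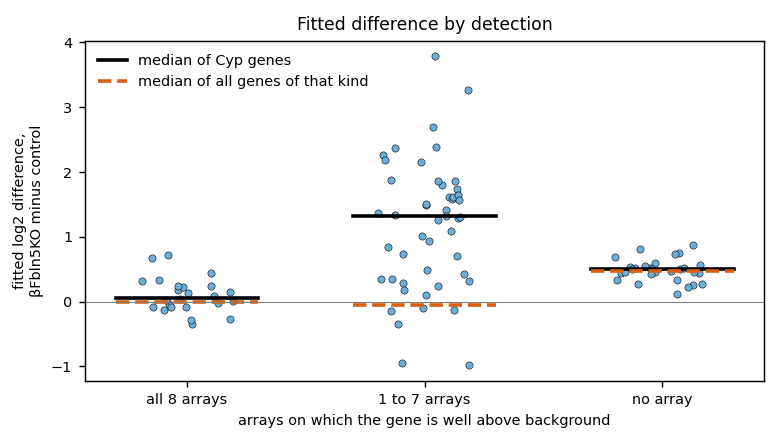
Fitted log2 difference, βFbln5KO minus control, of each of the 101 P450 genes (points, spread sideways at random), by the number of arrays on which the gene is well above background. The solid line is the median of the P450 genes and the dashed line that of all genes of the same kind, and the 29 genes bright on no array sit around 0.50, where all such genes sit at 0.48. Fitted values of genes dim on some or all arrays rest in part on signals at the floor and are not folds.

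The log2 differences of the 24 genes bright on all arrays ranged from −0.34 for Cyp17a1 to 0.72 for Cyp2d11. Their median was 0.06, beside −0.0082 over all 13650 genes bright on all arrays, and without the library labelled βFbln5KO replicate 4 it was 0.0041. The 3 genes higher at an unadjusted p under 0.05 were Cyp51, Cyp20a1 and Cyp2d11 (12.5%, against 1.01% of all genes bright on all arrays), and 0 were lower, against 3.08%. The groups did not overlap in 2 of the 24 (8.33%, against 0.733%), Cyp51 and Cyp2d11. The pooled SD within a group ranged from 0.077 to 1.39 over the 24 genes, with a median of 0.24, beside 0.13 over all genes bright on all arrays.

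**Figure D5:**
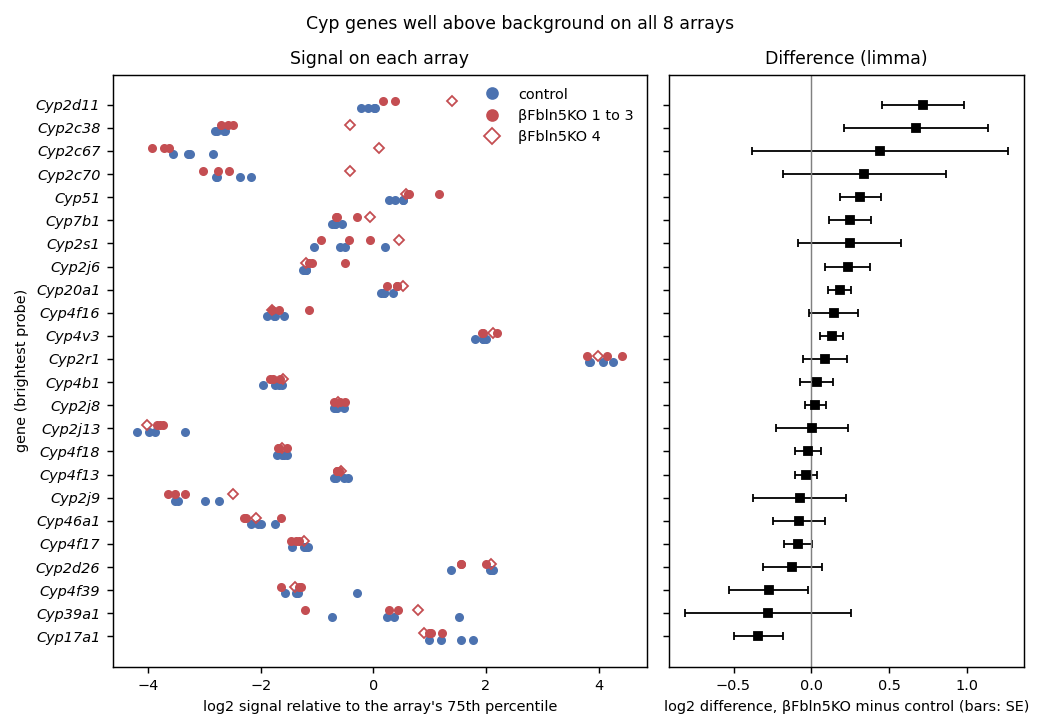
The 24 P450 genes bright on all 8 arrays, ordered by difference. Left, level on each array as log2 signal relative to the array's 75th percentile, with βFbln5KO replicate 4 as open diamonds. Right, limma log2 difference, βFbln5KO minus control, with bars of 1 SE. Cyp2c38, Cyp2c67, Cyp2c70 and Cyp2d11 have a diamond far to the right of their other points, and Cyp51 has all βFbln5KO points above all control points.

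All 7 sterol and bile acid oxidases were bright on at least 1 array, and 6 of the 7, all but Cyp7a1, on an array other than βFbln5KO replicate 4. Cyp51 removes the methyl group of lanosterol in cholesterol synthesis. Its brightest probe, A_55_P2792294, read 0.28, 0.52, 0.52 and 0.39 in control and 1.17, 0.63, 0.61 and 0.57 in βFbln5KO. All 4 βFbln5KO arrays lay above all 4 control arrays, replicate 1 furthest. The log2 difference was 0.32 with a SE of 0.13, a 1.24-fold higher signal, with an unadjusted limma p of 0.043, an adjusted p of 0.183 and an exact two-sided permutation p of 0.029, the smallest that 4 against 4 arrays allow. The second probe of Cyp51, A_51_P485791, differed by 0.02 with a SE of 0.23, and over the mean of both probes the difference of 0.17 had an unadjusted limma p of 0.341. Without replicate 1 the difference of the brightest probe was 0.17. The unadjusted call was lost without control replicate 1, 3 or 4. It was also lost with normexp, quantile normalization, a common floor, eBayes without trend, the methods' t-test and a block on replicate number.

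Cyp7b1, which hydroxylates oxysterols, read −0.69, −0.68, −0.73 and −0.56 in control and −0.30, −0.67, −0.65 and −0.05 in βFbln5KO, a difference of 0.25 with a SE of 0.14 and an adjusted limma p of 0.32. Replicates 1 and 4 were the high ones and the other 2 lay inside the control range. Cyp39a1, which hydroxylates 24-hydroxycholesterol, read 0.24, 0.37, 1.53 and −0.74 in control and 0.44, 0.27, −1.22 and 0.79 in βFbln5KO, a spread within each group that was larger than the difference of −0.28 (SE 0.53). Cyp46a1, which makes 24-hydroxycholesterol, read −2.17 to −1.75 in control and −2.30 to −1.65 in βFbln5KO.

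The bile acid enzymes Cyp27a1 and Cyp8b1 were below background on all control arrays and bright on 2 of the 4 βFbln5KO arrays each. Cyp27a1, the mitochondrial sterol 27-hydroxylase, read −6.96, −6.48, −7.14 and −6.93 in control and −6.28, −0.90, −6.30 and 1.13 in βFbln5KO. The bound between the groups was at least 3.46-fold, or 2.14-fold against the highest floor of all arrays, with an adjusted limma p of 0.179. The bound was 7.24-fold without replicate 1, 2.09-fold without replicate 2 and 7.28-fold without replicate 3. Without replicate 4 it was 1.31-fold, and no bound above 1 remains against the highest floor. Its spot lies in row 4 of the grid of 384 rows, close to the edge. Without replicate 2 or without replicate 4 the unadjusted limma p was 0.105 or 0.101. Cyp8b1, the sterol 12α-hydroxylase, read −7.01, −6.95, −7.16 and −6.94 in control and −3.10, −2.83, −6.47 and −6.07 in βFbln5KO, at least 1.20-fold, with an adjusted limma p of 0.0969. Its spot lies in row 8, and against the highest floor of all arrays no bound above 1 remains. The bound was 1.84-fold without replicate 3. Without replicate 4 it was 1.68-fold and the adjusted limma p 0.0491, in a fit that called 15.9% of all named genes higher after adjustment. The unadjusted limma p was 0.0171 with all arrays and 0.00998 without replicate 4. Without replicate 1 or 2 there was no bound. The replicates that were bright for these enzymes were not the same, replicates 2 and 4 for Cyp27a1 and 1 and 2 for Cyp8b1.

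Of the 6 steroid hormone enzymes, Cyp17a1 and Cyp21a1 were detected. Cyp17a1, the 17α-hydroxylase and lyase of androgen synthesis, read 1.55, 0.99, 1.77 and 1.20 in control and 1.23, 0.99, 1.03 and 0.90 in βFbln5KO. The 2 highest values were controls, but the groups overlapped, and the difference of −0.34 (SE 0.16) had an unadjusted limma p of 0.0621 and an adjusted p of 0.234. Cyp21a1, the 21-hydroxylase of corticoid synthesis, read −4.39 to −3.85 in control and −4.58, −3.33 and −4.04 on βFbln5KO replicates 2 to 4. It read −0.78 on replicate 1, and its spot lies in row 8 of the grid. The second probe of Cyp21a1, in row 337, read −4.99 on that array, within the −5.30 to −4.18 of the other arrays.

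Of the vitamin D and retinoic acid enzymes, Cyp2r1, the vitamin D 25-hydroxylase, was bright on every array, with levels of 4.25, 4.07, 3.86 and 3.84 in control and 4.16, 4.43, 3.80 and 3.99 in βFbln5KO. The difference of 0.09 (SE 0.14) was smaller than the spread within the groups. Cyp27b1, the 1α-hydroxylase of vitamin D, read −4.55 to −3.65 in control and −4.33, −2.06, −3.90 and −4.17 in βFbln5KO, with 1 array high. Cyp26b1, which breaks down retinoic acid, varied within both groups, with a lowest level of −4.56 and a highest of −0.72 in control, and −4.28 and 0.20 in βFbln5KO.

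None of the 7 Cyp4 genes bright on all arrays passed the test. Of these 7, Cyp4v3, a fatty acid ω-hydroxylase, had the largest level difference relative to its SE, 0.13 (SE 0.07, limma adjusted p = 0.331), with levels of 1.80 to 2.00 in control and 1.93 to 2.20 in βFbln5KO. The differences of the leukotriene B4 hydroxylase Cyp4f18 and of Cyp4f13, Cyp4f16, Cyp4f17 and Cyp4b1 lay between −0.09 and 0.14. That of Cyp4f39, a hydroxylase of very long fatty acids, was −0.27 (SE 0.26) and rested on control replicate 4, at −0.29 against −1.57 to −1.34 on the other controls, and without that array it was 0.0099.

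Cyp4a12a, a fatty acid hydroxylase of male mouse liver and kidney, was below background on all 4 control arrays. It read −7.15, −7.12, −7.30 and −7.08 there and −6.47, −6.54, −1.05 and −1.53 in βFbln5KO. Replicates 3 and 4 were bright and replicates 1 and 2 were at the floor. The bound was at least 1.98-fold, or 1.22-fold against the highest floor, with an unadjusted limma p of 0.0302 and an adjusted p of 0.143. Without replicate 1 or replicate 2 the bound was 3.59-fold or 3.64-fold. Without replicate 3 or replicate 4 it was 1.03-fold or 1.15-fold, with none above 1 against the highest floor, and the unadjusted limma p was 0.072 or 0.0908. Its neighbour Cyp4a12b read −4.24 to −3.74 in control and −4.78, −4.20, −4.25 and −1.19 in βFbln5KO, high on replicate 4 only. Whether either probe also reads the other gene could not be checked.

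Among the Cyp1 to Cyp3 genes bright on all arrays, the 4 of subfamily Cyp2j, which make epoxides of arachidonic acid, did not pass the test. Cyp2j6 read −1.25 to −1.19 in control and −1.14, −0.50, −1.09 and −1.19 in βFbln5KO, with replicate 2 apart, while its second probe read −4.04 on replicate 2, within its other values. The differences of Cyp2j8, Cyp2j9 and Cyp2j13 were 0.03, −0.08 and 0.00. Cyp2s1, which is induced through the dioxin receptor, read −1.06 to 0.20 in control and −0.92 to 0.45 in βFbln5KO. Cyp2d26 read 2.10, 2.06, 2.13 and 1.39 in control and 1.55, 1.56, 2.00 and 2.08 in βFbln5KO, a difference of −0.12 (SE 0.19).

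The differences of the Cyp2c genes bright on all arrays rested on the library labelled βFbln5KO replicate 4. Cyp2c67 read −2.85, −3.29, −3.56 and −3.27 in control and −3.94, −3.72, −3.64 and 0.10 in βFbln5KO, a difference of 0.44 (SE 0.82). The other 3 βFbln5KO arrays lay below all controls, and without replicate 4 the difference was −0.53, with an unadjusted limma p of 0.0509. Cyp2c70 read −2.81 to −2.18 in control and −2.76, −3.04, −2.57 and −0.41 in βFbln5KO, and its difference of 0.34 became −0.26 without that array. Cyp2c38 read −2.82 to −2.63 in control and −2.59, −2.49, −2.70 and −0.42 in βFbln5KO, a difference of 0.67 that was 0.13 without it. None of the 3 passed the test with or without replicate 4.

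Cyp2d11 read 0.02, 0.02, −0.22 and −0.09 in control and 0.17, 0.39 and 1.39 on βFbln5KO replicates 1, 3 and 4, since the scanner software marked its value on replicate 2 as an outlier and it was left out. All 3 remaining values lay above all controls. The difference of 0.72 (SE 0.26) had an unadjusted limma p of 0.0266 and an adjusted p of 0.131. Without replicate 4 the difference was 0.35, with an unadjusted limma p of 0.0133. The call of Cyp2d11 was lost without control replicate 3 and by the methods' t-test. Its spot lies in row 13. Cyp20a1, an orphan enzyme without a settled substrate, read 0.19, 0.19, 0.34 and 0.14 in control and 0.41, 0.24, 0.42 and 0.53 in βFbln5KO. One βFbln5KO value lay inside the control range, and the difference of 0.18 (SE 0.07) had an unadjusted limma p of 0.036, an adjusted p of 0.162 and an exact two-sided permutation p of 0.057. Without replicate 4 the difference was 0.14, with an unadjusted limma p of 0.0912. The call was also lost without control replicate 1, 2 or 4, without βFbln5KO replicate 1 or 3, with normexp and with eBayes without trend. Its spot lies in row 10, so neither Cyp20a1 nor Cyp2d11 is tested when the outer 16 spot rows are left out.

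Of the genes bright on 1 to 7 arrays, 8 of 48 were higher at an unadjusted p under 0.05 (16.7%, against 6.9% of all such genes) and 0 were lower, against 3.83%. All 8 were bright on no control array and entered this class through βFbln5KO spots alone, so that their direction follows from the class and nothing is read from the share. The 8 became 3 without any 1 of the 4 control arrays, 11 without βFbln5KO replicate 1 and 16 without replicate 4, and with quantile normalization or a common floor on dim signals 0 of the 8 passed. The 8 were Cyp4a12a, Cyp8b1, Cyp27a1, Cyp7a1, Cyp1a2, Cyp2g1, Cyp2c23 and Cyp2f2. Cyp2f2, a lung enzyme that activates naphthalene, read −7.14 to −6.91 in control and −1.80, −6.27, −6.47 and −4.34 in βFbln5KO, at least 1.12-fold, and against the highest floor no bound above 1 remains. Without replicate 4 the bound was 1.02-fold and the unadjusted limma p 0.0844, and without replicate 1 there was no bound. Cyp2c23, an epoxygenase of the kidney, read −7.28 to −7.05 in control and −6.46, −6.49, −3.97 and −3.06 in βFbln5KO, which gave no bound, and its second probe was bright on replicate 4 alone, at −2.09. By their brightest probes both were bright on 2 βFbln5KO arrays each and on no control array. Cyp2g1, an enzyme of the olfactory mucosa, had the smallest p of the 48 genes (limma adjusted p = 0.0732), but its 1 spot well above background, on βFbln5KO replicate 1, was marked as an outlier and left out, and the other 7 values, from −7.23 to −6.46, were all below background. Cyp2c55, a colon enzyme, read −3.70, −4.22, −3.95 and −2.15 in control and −4.21, −4.27, −4.87 and −4.45 in βFbln5KO, with a difference of −0.94 (SE 0.44, limma adjusted p = 0.232). It was bright on 4 control arrays and 1 βFbln5KO array, but the floors differ: control replicate 2 was bright at −4.22, above its floor of −4.84, and βFbln5KO replicate 1 was not at −4.21, below its floor of −4.19. Its second probe was bright on no array.

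Cyp2c54 showed a further pattern, bright on arrays of both genotypes and at the floor elsewhere. It read −0.38, −1.17, −7.04 and −6.82 in control and −6.35, −6.40, −6.53 and −0.02 in βFbln5KO. Control replicates 1 and 2 and βFbln5KO replicate 4 were bright, and the other 5 arrays were below background. Its spot lies in row 374 of 384, and of the other Cyp2c genes bright on 1 to 7 arrays only Cyp2c55 was bright on those 2 control arrays. On βFbln5KO replicate 1, Cyp2b10, a target of the drug receptor CAR, read −1.84 and Cyp4x1, a brain enzyme, −2.93, both with all other arrays below background. The second probe of Cyp2b10 read −6.28 on that array and was bright on none.

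None of the electron donors of the P450 enzymes passed the test. Of 20 measured genes for electron donors, haem synthesis and haem breakdown, all were bright on all arrays and 0 passed the test in either direction, beside 1.01% of all genes bright on all arrays called higher and 3.08% lower, with a median log2 difference of 0.0051. Por, the P450 reductase, read 3.99 to 4.25 in control and 4.14 to 4.34 in βFbln5KO, a difference of 0.08 (SE 0.07). The differences of Fdx1 and Fdxr, the mitochondrial electron chain to P450 enzymes, were −0.04 (SE 0.07) and 0.02 (SE 0.05), and that of Cyb5a, cytochrome b5, was 0.01 (SE 0.08). Of 23 measured regulators of P450 genes, 2 were higher at an unadjusted p under 0.05, Ahrr and Nr0b2, both bright on no array, and 0 were lower, beside 16.8% of all named genes and 60.6% of those bright on no array called higher. On the library labelled βFbln5KO replicate 4, Nr1i3, which encodes CAR, read −2.90, above its level of −6.53 to −4.79 on the other arrays.

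Of 20 genes of cholesterol synthesis and uptake, all bright on all arrays, 1 was higher at an unadjusted p under 0.05 and 0 were lower, beside 1.01% and 3.08% of all genes bright on all arrays. That gene was Idi1, which isomerizes isopentenyl diphosphate, at 1.03 to 1.32 in control and 1.08 to 1.65 in βFbln5KO, a difference of 0.36 (SE 0.13, limma adjusted p = 0.125), which without replicate 4 had an unadjusted limma p of 0.0698. The median difference of the list was 0.11, beside −0.0082 over all genes bright on all arrays. Of 16 measured steroid partners, 3 were higher and 0 lower, beside 16.8% and 2.68% of all named genes, and 2 of the 3 were among the 10 partners bright on all arrays, beside 1.01% of all such genes higher. Srd5a3, a polyprenol reductase, differed by 0.20 (SE 0.05, limma adjusted p = 0.0728), and Amacr, a racemase of bile acid side chains, by 0.18 (SE 0.07, limma adjusted p = 0.122), and the third, Hsd11b2, was bright on no array. The groups did not overlap in Srd5a3 or in Amacr, beside 0.733% of all genes bright on all arrays that were higher without overlap. Without replicate 4 the unadjusted limma p rose from 0.0036 to 0.0080 for Srd5a3 and from 0.0239 to 0.0521 for Amacr. The adjusted limma p was then 0.0403 for Srd5a3, past the threshold, and 0.194 for Amacr. That fit called 15.9% of all named genes higher after adjustment, against 0.00873% with all arrays, so the lower adjusted p of Srd5a3 is not read.

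Of 21 measured other enzymes of foreign compound metabolism, 0 passed the test in either direction, and 18 of them were bright on all arrays, where 1.01% of all genes were called higher and 3.08% lower. Of the 21, 9 had their highest level on the library labelled βFbln5KO replicate 4. Among them Gsta3, a glutathione transferase, read 1.62 there and −3.42 to −1.83 on the other arrays. The 2 P450 genes with other symbols, Tbxas1, the thromboxane synthase, and Ptgis, the prostacyclin synthase, did not pass the test. Tbxas1 differed by −0.48 (SE 0.30), and Ptgis read −5.68 to −4.48 in control and −6.58 to −4.37 in βFbln5KO. The 10 acinar markers, digestive enzymes of the exocrine pancreas, summed to 1091 to 3204 multiples of the 75th percentile signal in control and to 667 to 1929 in βFbln5KO, with replicate 4 the highest of its group.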

How the data were processed

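Per the labels, total RNA of islets was labelled with Cy3 and hybridised to SurePrint G3 mouse arrays, 4 per group on 1 slide. The authors deposited the intensity of each spot from Agilent Feature Extraction 11.0.1.1 (per the submitters' processing notes), background-subtracted and not normalized between arrays, with flags, and a table of 35553 probes whose intensity values are those signals scaled by 1 factor per array. The authors' flag columns are other data, 0 or 1 per spot.

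Here log2 signals were shifted by each array's 75th percentile. Outlier-marked values were left out (0.356%), replicate spots averaged, and 56605 probes fitted with limma 3.58.1 (lmFit, eBayes with trend) in R 4.3.3, with p adjusted by Benjamini-Hochberg across every probe, threshold 0.05. Direction is βFbln5KO minus control. Accessions named 32994 probes (58.3%). The number of arrays limits the precision. The fit was tested on simulated data. Bounds use each array's lowest signal well above background. Exact two-sided permutation tests of single genes used 70 splits, with a smallest p of 0.029. The members, lists and motif were chosen with earlier results of these data known. Genes named by rule were P450 genes bright on all arrays, Cyp4a12a, genes bright on 2 or more arrays of 1 group and none of the other, the 5 with the smallest p on 1 to 7 arrays, Fbln5, the electron donors, and called bright list members. Others were named after their values were seen.

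The alternatives were normexp (offset 50, on median signals), quantile normalization, a filter to 4 arrays, a common floor, eBayes without trend, outliers kept, the mean of all probes, the outer 16 rows left out, the deposited table, the methods' t-test, a block on replicate number, and omission of each array. The array header names a build other than that of the gene table, so no gene coordinates are given. Promoter windows are RefSeq, GRCm38.p6. Python 3.11.15, pandas 2.3.3 and matplotlib 3.10.9 were used.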

Additional observations from a re-analysis of the deposited data

Results flagged for a closer look

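Of 110 groups of 4 arrays tested, over 54 genes and 2 counts per array, 28 held an array whose gap to its nearest neighbour exceeded Dixon's critical share of the group's range. Of the 28, 22 were the library labelled βFbln5KO replicate 4, and 18 of those 22 were genes looked at because they were bright on that array alone. Chance gives about 1 in 20 such groups, a figure that holds for measures not picked in this way, so the number of these cases is not compared with it. These measures were read on the same arrays, and genes with near-identical neighbours are not independent.

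On that array the number of P450 genes bright stood apart by 0.861 of the range, and the number bright there alone by 0.87. Among the genes bright on all arrays, the share of the range was 0.906 for Cyp2c38 and 0.927 for Cyp2c67. Among the genes bright on that array alone it was 0.935 for Cyp2e1, 0.963 for Cyp3a41a, 0.99 for Cyp2c50, 0.981 for Cyp2c37, 0.956 for Cyp3a11, 0.974 for Cyp2a5 and 0.978 for Cyp3a16. It was 0.975 for Cyp2a12, 0.90 for Cyp2c40, 0.974 for Cyp2a4, 0.83 for Cyp2d12, 0.943 for Cyp3a25, 0.855 for Cyp4f14 and 0.95 for Cyp3a59. It was 0.945 for Cyp2j5, 0.924 for Cyp3a57, 0.952 for Cyp1a2 and 0.916 for Cyp7a1.

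On other arrays, Cyp51 on βFbln5KO replicate 1 stood apart by 0.898 of the range and Cyp2j6 on βFbln5KO replicate 2 by 0.861. Cyp2d26 stood apart on control replicate 4 by 0.917. On control replicate 3, below background, Cyp3a41a did so by 0.906 and Cyp3a11 by 0.934. The count of P450 genes bright on 1 array alone stood apart on control replicate 2 by 1.0 of the range, with 1 gene, Cyp1b1, against 0 on the other controls, a share that follows whenever 3 of 4 values are equal.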

How the results depend on the processing

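The count of P450 genes higher in βFbln5KO at an unadjusted p under 0.05, 31, fell to 2 with normexp, with quantile normalization and with a common floor, to 3 under the filter to 4 arrays (35 members tested) and to 8 in the deposited table (66 tested), which hold fewer dim genes or treat them otherwise. The count lower, 0, was 1 with normexp and under the filter, Cyp2c55 in both. Among genes bright on all arrays the count higher, 3, was 1 with eBayes without trend (Cyp2d11), with normexp (Cyp2d11), without the outer 16 rows (Cyp51, the other 2 lying in those rows) and by the methods' t-test (Cyp20a1). The methods' t-test called 24 members higher and 0 lower, and 0 after Benjamini-Hochberg adjustment. The count past the adjusted threshold, 0, was 10 with eBayes without trend, all of them bright on no array.

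With each array left out in turn, 23 to 40 members were higher, 0 to 2 lower, 1 to 4 of the bright ones higher and 0 to 1 lower, and the median difference of the bright ones ranged from 0.0041 to 0.13. The bright count was 1 without control replicate 1, 3 or 4. The adjusted count ranged from 0 to 33 and was above 0 without βFbln5KO replicate 4 only. Genes that changed sign after exceeding their SE were Cyp2g1 (−0.096 with normexp) and Cyp4f39 (−0.42 to 0.0099 with each array left out, the latter without control replicate 4). Over single genes and alternatives, 513 values kept direction and side of the threshold, 66 lost the threshold and 6 gained it. The 23 genes bright on βFbln5KO replicate 4 alone were 22 by any probe, 21 without the outer 16 rows and 19 when at least 2-fold was asked, settings chosen after seeing the data.

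With the replicate number as a block, 28 members were higher and 1 was lower, Cyp17a1, which was also the 1 lower among the bright ones. The deviations of same-numbered arrays from their group means correlated at 0.20, 0.30, −0.22 and −0.02. The highest value of any pair was 0.35, for control replicate 3 and βFbln5KO replicate 4. These few values neither show nor exclude a pairing by number.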
